A study of Aedes aegypti with 48 samples.

Results

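Odorant binding proteins (OBPs) were followed through 6 named genes of the yellow fever mosquito Aedes aegypti: OBP1 (AAEL009449), OBP11 (AAEL002587), OBP12 (AAEL002617), OBP13 (AAEL002591), OBP22 (AAEL005772) and OBP38 (AAEL008013). They were taken by identifier from the 19804 genes of the count files, and all 6 passed the filter on low counts in every comparison. The libraries came from a cycle knockout line (KO, AeCyc-/-) and from the wild type (WT), each of the Liverpool strain. Each library was made from a pool of 10 whole females collected 5 days after emergence. The lines were kept at 27 °C in days with equal light and dark phases (12 h each). Dawn and dusk were 1 h transitions within that cycle. Adults were offered sucrose, and adult females of the lines were given sheep blood through a membrane feeder. Whether the collected females had taken blood is not stated. Each genotype was collected at ZT1, ZT5, ZT9 and ZT13, where ZT is Zeitgeber time, the hours since lights on. There were 6 libraries per genotype and time, except that KO at ZT13 had 5, because the library labelled KO ZT13 replicate 1 had the same count as WT ZT9 replicate 2 at all 19804 genes and was left out. All KO libraries came from 1 knockout line, so that the knockout and anything else particular to that line cannot be told apart.

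OBPs are small secreted proteins that bind hydrophobic molecules in the fluid around sensory neurons of antennae, palps and other appendages. There they are thought to carry odorants to the odorant receptors, and individual family members are also made outside sense organs, among them in salivary glands and reproductive tissue. Mosquito OBP1 is known from Culex, where it binds an oviposition pheromone, and OBP22 of Aedes aegypti is known to bind fatty acids. Cycle is a transcription factor of the clock, which pairs with Clock to switch on the genes that later repress the pair. Olfactory sensitivity of mosquitoes is known to vary over the day. No reading frame, promoter or transcript length of these genes was used here, so that levels are compared between samples and never between genes.

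Levels are given as CPM, the counts of a gene relative to the library total per 1e6 counts, scaled by TMM factors over the 47 libraries, which held between 10670669 and 33232780 counts on genes (median 26210624). These were 18.4 to 31.7% of each file's total. Cycle itself (AAEL002049) was lower in the knockout line at ZT1, with 29.5 to 44.7 CPM in KO against 63.3 to 75.4 CPM in WT, and at ZT5 and ZT13, where the groups did not overlap either. At ZT9 the range was 25.2 to 33.5 CPM in KO against 27.5 to 33.3 CPM in WT (log2 fold change -0.11, adjusted p = 0.281 in edgeR's quasi-likelihood test). Markers of males summed to at most 0.0734 CPM in any library. The labels call the libraries of a group biological replicates without saying whether they came from separate rearings, so that the p-values measure the spread between these pools.

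The most calls between KO and WT among the OBP genes were at ZT1, 1 h after lights on, the time with the most calls over all genes too. There 5 of the 6 were higher in KO at an adjusted p below 0.05 (quasi-likelihood test of edgeR, adjusted over all genes by Benjamini and Hochberg) and none was lower, against 24.5% of 11535 genes tested called higher and 22.7% called lower. The median log2 fold change was 0.72 over the 6 genes and 0.02 over all genes tested. In KO replicates 1, 4 and 5 at ZT1, yolk protein transcripts exceeded those of every WT library. Without these 3 libraries, a fit chosen after the data were examined that left 3 KO libraries, 1 of the 6 genes was called at ZT1, namely OBP38, and 3368 genes were called in all, against 5438 with them. At ZT5, 1 was higher and 1 lower, against 15.5% of 11737 genes called in each direction. At ZT9, 1 was higher and none lower, against 16.3% called higher and 16.7% lower of 11673 genes. At ZT13, 2 were higher and none lower, against 18.6% called higher and 17.0% lower of 11530 genes. The medians over the 6 genes at these later times were 0.04, 0.10 and 0.13, beside all-gene medians between 0.00 and 0.01. Averaged over the 4 times, 4 of 6 were higher and none lower, against 34.5% called higher and 31.7% lower of 12344 genes. Without the same 3 libraries these counts were 3 and 1. The shares of all genes called in that fit are not given here, so that the change is not read as particular to OBP genes. All of these genes other than OBP1 were named by the study as changed in the same libraries, so that their calls are not independent evidence of a direction. Because whole bodies were sequenced, a difference in the number of cells of a type and a difference in RNA per cell cannot be told apart.

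**Figure D1:**
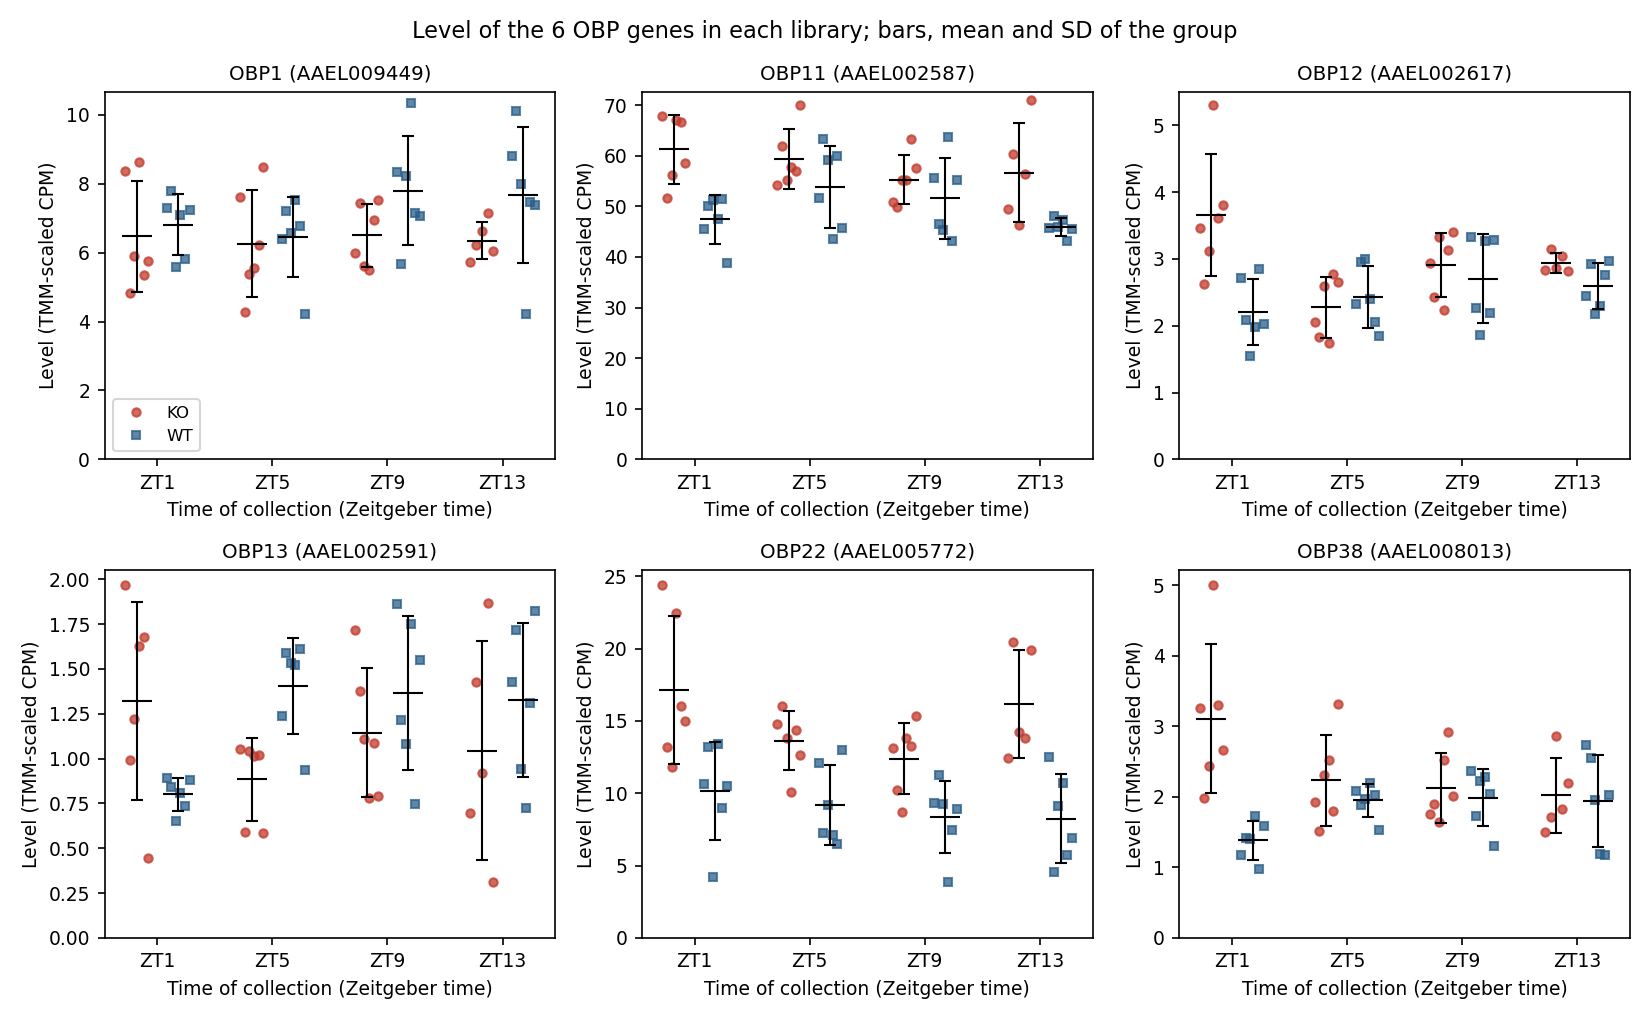
Level of each OBP gene (TMM-scaled CPM, y axis from 0, own scale per gene) in every library by time of collection, with KO (circles) left of WT (squares); black bars are the group mean and SD, n = 6, or 5 for KO at ZT13. At ZT1 every KO library of OBP11 and OBP38 lies above every WT library, and OBP22 has the higher KO mean at all 4 times.

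OBP22, the fatty acid binding member, was the one with a call at every time. At ZT1 its lowest, median and highest values were 11.8, 15.5 and 24.4 CPM among KO pools, against 4.19, 10.6 and 13.4 CPM among WT pools. Only 2 KO libraries fell within the WT range there. The log2 fold change was 0.75 (SE 0.24, adjusted p = 0.0199 in edgeR). At ZT5 the lowest, median and highest were 10.1, 14.1 and 16.0 CPM among KO pools, against 6.48, 8.21 and 12.98 CPM among WT pools, a log2 fold change of 0.57 (SE 0.17, adjusted p = 0.0236). At ZT9 they were 8.69, 13.2 and 15.3 CPM among KO pools, against 3.88, 9.05 and 11.3 CPM among WT pools, a log2 fold change of 0.56 (SE 0.20, adjusted p = 0.0470). At each of these times 4 of 6 KO libraries stood above all 6 WT libraries.

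At ZT13 the 5 KO libraries had 12.4, 13.8, 14.2, 19.9 and 20.4 CPM of OBP22, while the WT libraries had 4.52 at the lowest, 8.01 at the median and 12.5 at the highest. The KO library at 12.4 CPM lay just inside the WT range and the other 4 lay above it. This was the largest of the OBP22 differences, a log2 fold change of 0.95 (SE 0.22, adjusted p = 0.00478). The group means of KO, 17.1 ± 5.10, 13.6 ± 2.05, 12.4 ± 2.46 and 16.2 ± 3.72 CPM from ZT1 to ZT13 (SD, n = 6, 6, 6 and 5), were all above those of WT, 10.1 ± 3.38, 9.18 ± 2.76, 8.33 ± 2.50 and 8.24 ± 3.07 CPM (SD, n = 6). Averaged over the day the log2 fold change was 0.71 (95% interval 0.47 to 0.95, adjusted p = 1.42e-06 in edgeR), and it stayed called in each of 47 fits that left out 1 library. A change of this difference with time was not called (interaction, adjusted p = 0.820). OBP22 had no time call within KO (adjusted p = 0.177) or within WT (adjusted p = 0.762). The single-time calls were less firm. The one at ZT1 was lost without KO replicate 1 (adjusted p = 0.0534), and without KO replicates 1, 4 and 5 the log2 fold change there was 0.38 (adjusted p = 0.308). The one at ZT5 was lost without KO replicate 2 (0.0537), WT replicate 2 (0.0521) or WT replicate 4 (0.0509). The one at ZT9 was lost in 8 of 12 such fits (adjusted p 0.0283 to 0.0944) and remained only without KO replicate 2 or 3 or WT replicate 2 or 4.

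OBP11 had the highest counts of the 6 behind its values, 681 to 2005 per library, and its differences were small. At ZT1 it stood at 51.6, 62.5 and 67.9 CPM in KO, against 38.8, 48.8 and 51.5 CPM in WT, for the lowest, median and highest library, so that all 6 KO libraries lay above all 6 WT libraries. The log2 fold change was 0.37 (SE 0.08, adjusted p = 0.00247 in edgeR), and without KO replicates 1, 4 and 5 it was 0.22 (adjusted p = 0.0727). Of the 6 genes, 2 had such separated groups at ZT1, OBP11 and OBP38, beside 11.3% of all genes tested with every KO library above every WT library. At ZT13 the KO libraries had 46.3, 49.4, 56.4, 60.3 and 71.0 CPM, and the WT libraries 43.1, 45.7 and 48.1 CPM at the lowest, median and highest. Thus 4 of 5 KO libraries were above all of WT, and the log2 fold change was 0.29 (SE 0.09, adjusted p = 0.0173). With the library labelled KO ZT13 replicate 1 kept, this call was lost (0.25, adjusted p = 0.0666).

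At ZT5 and ZT9 the 2 genotypes overlapped for OBP11. KO averaged 59.3 ± 5.87 CPM at ZT5 and WT 53.9 ± 8.10 CPM (SD, n = 6), a log2 fold change of 0.14 (95% interval -0.06 to 0.33). At ZT9 the means were 55.3 ± 4.89 CPM in KO against 51.6 ± 7.94 CPM in WT, a log2 fold change of 0.10 (95% interval -0.10 to 0.30). The estimate was thus positive at all 4 times, and the average over them was 0.23 (95% interval 0.13 to 0.32, adjusted p = 8.56e-05 in edgeR). Neither time within KO (adjusted p = 0.543), time within WT (adjusted p = 0.251) nor the interaction (adjusted p = 0.517) was called.

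OBP38 and OBP12 were each called higher in KO at ZT1 and were not called at ZT5, ZT9 or ZT13, although a change of the difference with time was not called in edgeR either. At ZT1 OBP38 stood at 1.98, 2.96 and 5.01 CPM in KO, against 0.978, 1.41 and 1.73 CPM in WT, for the lowest, median and highest library. The groups did not overlap, and the log2 fold change of 1.16 (SE 0.22, adjusted p = 0.000761 in edgeR) was the largest of the 6 genes at any time. It held in all 12 fits without 1 library (0.97 to 1.26) and, smaller, without KO replicates 1, 4 and 5 (0.76, adjusted p = 0.0188). From ZT5 to ZT13 its KO means were 2.23 ± 0.643, 2.13 ± 0.495 and 2.02 ± 0.532 CPM (SD, n = 6, 6 and 5), against WT means of 1.95 ± 0.231, 1.99 ± 0.407 and 1.94 ± 0.658 CPM (SD, n = 6). The log2 fold changes at these times were 0.19 (95% interval -0.19 to 0.57), 0.10 (-0.31 to 0.50) and 0.07 (-0.46 to 0.60). Averaged over the day OBP38 was higher by 0.38 (SE 0.11, adjusted p = 0.00205).

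At ZT1 OBP12 stood at 2.63, 3.54 and 5.31 CPM in KO, against 1.55, 2.06 and 2.85 CPM in WT, for the lowest, median and highest library. All but 1 KO library lay above the whole WT group, and the log2 fold change was 0.72 (SE 0.19, adjusted p = 0.00593 in edgeR), or 0.52 (adjusted p = 0.0891) without KO replicates 1, 4 and 5. At ZT5 the means were 2.27 ± 0.453 CPM in KO against 2.43 ± 0.468 CPM in WT (SD, n = 6), with a log2 fold change of -0.11 (95% interval -0.46 to 0.24). At ZT9 they were 2.91 ± 0.479 CPM in KO against 2.70 ± 0.666 CPM in WT, and the log2 fold change was 0.11 (-0.27 to 0.49). At ZT13 the 5 KO libraries lay close together at 2.81, 2.83, 2.86, 3.04 and 3.15 CPM, against 2.17 to 2.97 CPM in WT, with a log2 fold change of 0.18 (-0.09 to 0.46). Averaged over the day the log2 fold change was 0.23 (SE 0.08, adjusted p = 0.0153), and without those 3 libraries it was 0.18 (adjusted p = 0.0585).

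OBP13 was the least deeply counted, with 3 to 52 counts per library and a median of 27, and the only one whose called differences had opposite signs. At ZT1 its KO libraries spread from 0.443 to 1.97 CPM with a median of 1.42, whereas the WT libraries lay within 0.650 to 0.891 CPM with a median of 0.824. Of the KO libraries, 5 were above all WT libraries and 1 was below all of them. The log2 fold change was 0.72 (SE 0.27, adjusted p = 0.0412 in edgeR). This call was lost in 10 of the 12 fits that left out 1 library (adjusted p 0.00372 to 0.112) and remained only without KO replicate 2 or KO replicate 6, of which replicate 6 is the library at 0.443 CPM. Without KO replicates 1, 4 and 5 together the log2 fold change was 0.18 (adjusted p = 0.681). At ZT5 OBP13 was lower in KO, with 0.584, 1.02 and 1.05 CPM at the lowest, median and highest KO library and 0.937, 1.53 and 1.61 CPM in WT. There 5 of 6 WT libraries were above all KO libraries, and the log2 fold change was -0.66 (SE 0.21, adjusted p = 0.0255). It was lost without KO replicate 2 (adjusted p = 0.0543), KO replicate 6 (0.0528), WT replicate 2 (0.0517) or WT replicate 5 (0.0502). At ZT9 the OBP13 means were 1.14 ± 0.359 CPM in KO against 1.37 ± 0.429 CPM in WT (SD, n = 6). At ZT13 they were 1.04 ± 0.611 CPM in KO (SD, n = 5) against 1.32 ± 0.430 CPM in WT (SD, n = 6). The ZT13 interval ran from -0.98 to 0.48 on the log2 scale. The average over the day was -0.11 (95% interval -0.40 to 0.18, adjusted p = 0.4996).

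OBP1 had no called difference between the genotypes at any time. Its group means were 6.47 ± 1.62, 6.26 ± 1.55, 6.50 ± 0.912 and 6.35 ± 0.550 CPM in KO from ZT1 to ZT13 (SD, n = 6, 6, 6 and 5), and 6.81 ± 0.886, 6.45 ± 1.16, 7.80 ± 1.58 and 7.67 ± 1.98 CPM in WT (SD, n = 6). All KO values lay between 4.29 and 8.63 CPM, and all WT values between 4.21 and 10.4 CPM. The log2 fold changes were -0.08 and -0.05 at ZT1 and ZT5, and -0.27 (95% interval -0.56 to 0.03) and -0.26 (-0.63 to 0.10) at ZT9 and ZT13. Over the day the estimate was -0.16 (95% interval -0.33 to 0.01, adjusted p = 0.0833 in edgeR). At ZT13, 5 of 6 WT libraries were above all 5 KO libraries, and WT replicate 4, at 4.21 CPM, was below all of them. Without that library OBP1 was called lower in KO at ZT13 (-0.39, adjusted p = 0.0162) and over the day (-0.19, adjusted p = 0.0244). The average was also called without KO ZT1 replicate 1, KO ZT5 replicate 6, WT ZT5 replicate 6 or WT ZT9 replicate 2 (adjusted p 0.0473, 0.0423, 0.0401 and 0.0497), and without KO ZT1 replicates 1, 4 and 5 together (-0.22, adjusted p = 0.0258).

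**Figure D2:**
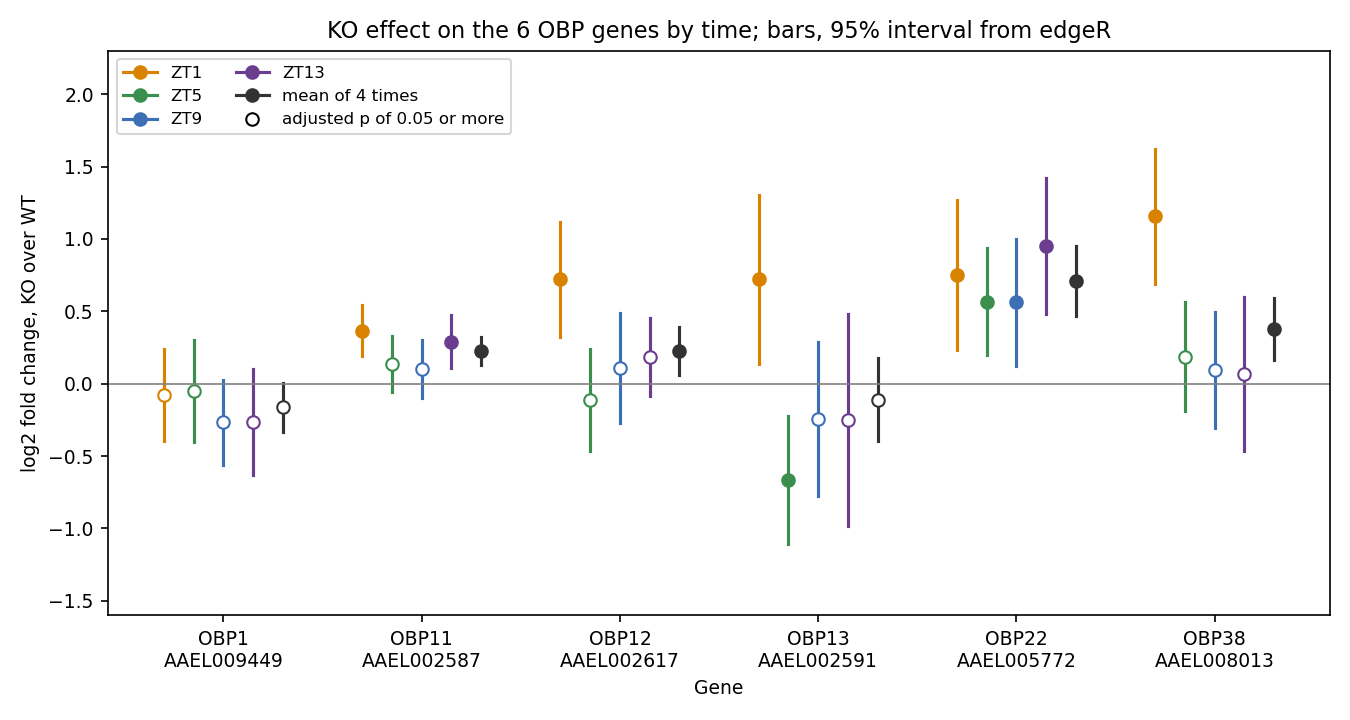
Log2 fold change of KO over WT (y axis) for each OBP gene (x axis) at ZT1, ZT5, ZT9 and ZT13 and averaged over the 4 times, with 95% intervals from edgeR; filled points have an adjusted p below 0.05. The ZT1 estimates of OBP12, OBP13 and OBP38 (0.72, 0.72 and 1.16) stand above those of the same genes at later times, while OBP22 stays between 0.56 and 0.95.

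The time course was then examined within each genotype. Among KO libraries 1 of 6 OBP genes, OBP12, varied with time (edgeR F-test, adjusted p = 0.0368), beside 9.26% of 11989 genes tested. Its KO mean was 2.27 CPM at ZT5 against 3.65 CPM at ZT1, a log2 fold change of -0.69 for ZT5 over ZT1 (SE 0.16, adjusted p = 0.0262), while 1.27% of genes were called lower at ZT5 than at ZT1 in KO. The KO libraries of OBP12 at ZT5, 1.74 to 2.77 CPM, overlapped those at ZT1, 2.63 to 5.31 CPM, at their upper end. The time call was lost in 10 of 23 fits that left out 1 library (adjusted p 0.0139 to 0.0891): without KO ZT1 replicate 1, 4, 5 or 6, KO ZT5 replicate 1, 2 or 4, or KO ZT13 replicate 2, 4 or 5. Without KO ZT1 replicates 1, 4 and 5 together the adjusted p was 0.251. In WT the OBP12 means lay between 2.203 and 2.70 CPM (time, adjusted p = 0.596).

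Among WT libraries 1 of 6, OBP13, varied with time (adjusted p = 0.0492 in edgeR), beside 14.6% of 11982 genes. It rose to 1.40 CPM at ZT5, against 0.800 CPM at ZT1, a log2 fold change of 0.80 (SE 0.23, adjusted p = 0.0443), and 2.21% of genes were called higher at ZT5 than at ZT1 in WT. All 6 WT libraries at ZT5 (0.937 CPM and more) were above all 6 at ZT1 (0.891 CPM and less). Those at ZT1 held 16 to 25 counts each, and the share of all genes separated in this way was not computed. At ZT9 and ZT13 OBP13 stood 0.76 and 0.70 above ZT1 on the log2 scale (adjusted p = 0.0691 and 0.0572). The time call was lost in 18 of 24 fits without 1 library (adjusted p 0.0198 to 0.116), among them every fit without a ZT1 library. It remained without WT ZT5 replicate 6, WT ZT9 replicate 3, 4 or 5, or WT ZT13 replicate 3 or 4.

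For OBP12, OBP13 and OBP38 the order of the group means over the day differed between genotypes: each had its highest KO mean and its lowest WT mean at ZT1, the KO mean being taken over all 6 libraries. The ratio of the highest to the lowest group mean was 1.61 in KO and 1.23 in WT for OBP12, 1.496 in KO and 1.75 in WT for OBP13, and 1.54 in KO and 1.44 in WT for OBP38. For OBP22 the ratios were 1.38 in KO and 1.23 in WT, for OBP11 1.109 in KO and 1.17 in WT, and for OBP1 1.04 in KO and 1.21 in WT. The test of whether the KO effect changed with time called none of the 6 genes in edgeR, beside 1.30% of 12344 genes. The lowest adjusted p values in that edgeR test were 0.0828 for OBP38, 0.154 for OBP12 and 0.183 for OBP13. The likelihood ratio test of DESeq2 called OBP38 (adjusted p = 0.0340), beside 2.84% of the same genes. In edgeR OBP38 was called only without KO ZT1 replicate 2 (adjusted p = 0.0491), and its adjusted p ranged up to 0.228 without other single libraries and was 0.630 without KO ZT1 replicates 1, 4 and 5.

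Other genes that the study placed under odorant binding made a second list of 14, of which 10 were tested at ZT1 and 11 at the later times. It holds D7 proteins, salivary relatives of the OBPs that bind host amines and lipids in the bite, and several genes of unspecified product. From ZT1 to ZT13, 9, 7, 8 and 4 of them were higher in KO, and 1, 0, 1 and 1 were lower, beside 24.5, 15.5, 16.3 and 18.6% of all genes called higher and 22.7, 15.5, 16.7 and 17.0% called lower. The median log2 fold changes were 0.65, 0.33, 0.45 and 0.24 at the 4 times. This list was drawn from genes the study found changed in these libraries, and its direction is not independent evidence. Time was called in 2 of its 11 tested genes within KO and in 2 within WT, beside 9.26% and 14.6% of all genes, and the interaction in none, beside 1.30%.

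By mean log2 fold change over the 4 times, among the 10 whose mean log2 CPM reached 1, the highest was AAEL018102, an unspecified product. It had 55.9 ± 12.2 CPM over the KO libraries and 33.2 ± 7.73 CPM over the WT libraries (SD, n = 23 and 24), and log2 fold changes of 1.19, 0.66, 0.57 and 0.46 from ZT1 to ZT13. The short form D7 salivary protein AAEL006423 averaged 78.1 ± 17.8 CPM in KO against 53.1 ± 6.12 CPM in WT, and was called at all 4 times (0.75, 0.52, 0.45 and 0.39). AAEL024303, of unspecified product, averaged 47.3 ± 11.2 CPM in KO against 32.2 ± 3.48 CPM in WT. At the other end AAEL019475, of unspecified product, was lower in KO, with 86.8 ± 15.6 CPM against 107 ± 10.9 CPM in WT and an average log2 fold change of -0.30 (adjusted p = 4.58e-06 in edgeR). The next lowest, AAEL004729 and AAEL004730, were still higher in KO over the day (0.29 and 0.36, adjusted p = 0.00318 and 0.00226).

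**Figure D3:**
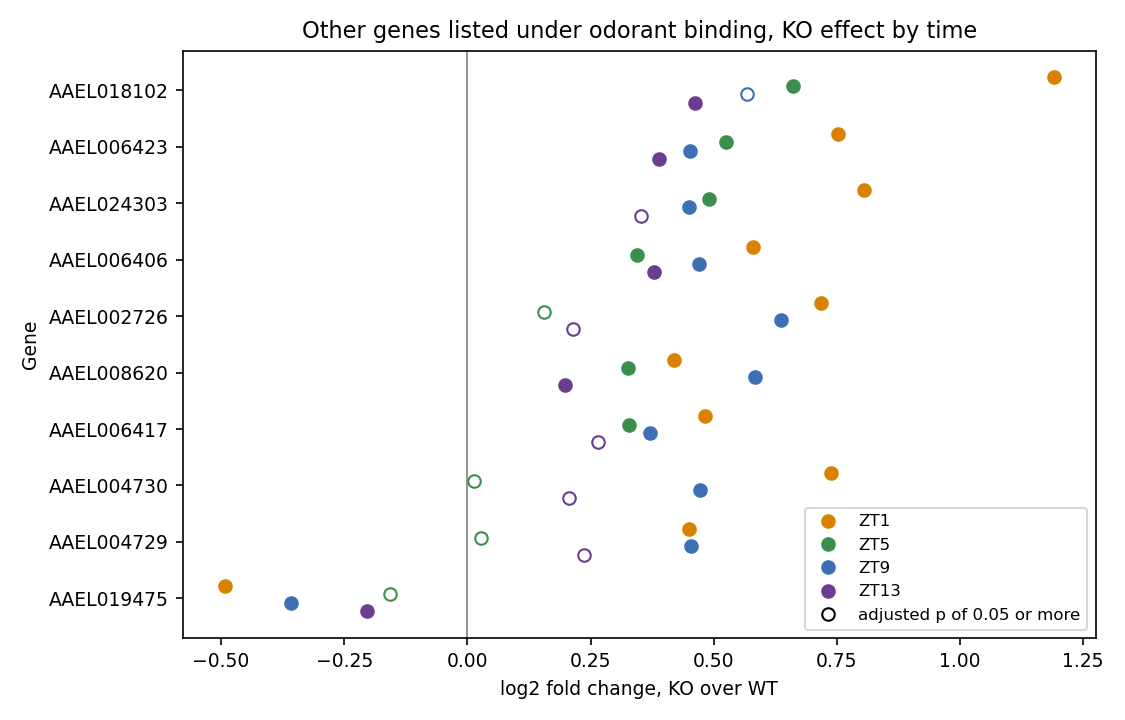
Log2 fold change of KO over WT (x axis) at each time for the 10 other genes listed under odorant binding whose mean log2 CPM reached 1 (y axis, ordered by their mean); filled points have an adjusted p below 0.05 in edgeR. At ZT1 AAEL018102 reaches 1.19, and AAEL019475 is the one gene below 0 at all 4 times.

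Marker lists of tissues that could carry OBP transcripts moved in part with the OBP genes, and their counts are to be read beside the 24.5, 15.5, 16.3 and 18.6% of all genes called higher in KO from ZT1 to ZT13. Of 6 genes of chemosensory neurons, 4 were tested and none was higher in KO at any time. AAEL002922 was the 1 lower at ZT5 and AAEL005776 the 1 lower at ZT9, beside 15.5% and 16.7% of all genes. The summed level of the 6 genes at ZT1 was 13.2 to 19.8 CPM in KO and 16.9 to 18.3 CPM in WT. Of 6 salivary gland genes, of which 3 are also in the second list, 5, 4, 4 and 3 were higher in KO at the 4 times and none was lower. Their sum ranged over 983 to 1598 CPM in KO and 860 to 1116 CPM in WT at ZT1, and over 794 to 1277 CPM in KO and 760 to 990.2 CPM in WT at ZT13. Of 3 yolk protein genes, which are switched on in the fat body by a blood meal, all 3 were higher in KO at ZT1 and ZT5, 2 at ZT9 and none at ZT13. At ZT1 their sum was 32.4, 59.4, 64.7, 380, 398 and 1152 CPM in the KO libraries and 15.8 to 64.8 CPM in WT. The 3 highest were KO replicates 1, 4 and 5 in rising order, of which replicates 1 and 4 also had the highest OBP22 values, 24.4 and 22.4 CPM. Without replicate 1 the OBP genes called at ZT1 were 3, with OBP13 (adjusted p = 0.112) and OBP22 (0.0534) lost. Without replicate 4 or replicate 5 they were 4, with OBP13 lost (0.0854 and 0.0834), and without all 3 they were 1. Over all genes, 4783 to 5769 were called at ZT1 in fits without 1 library. Without all 3 it was 3368, against 5438 with every library. Of 3 opsin genes, markers of photoreceptors, 2, 2, 1 and 3 were higher in KO from ZT1 to ZT13, of 2, 3, 2 and 3 tested. The 1 midgut gene was not called at any single time. In the average over the 4 times all 6 salivary, 3 yolk, 3 opsin and 1 midgut genes were higher in KO. Of the 4 chemosensory genes tested, 0 were higher and 1 was lower in that average. Of all genes, 34.5% were called higher and 31.7% lower there. The part of these tissues in the OBP differences was not tested.

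Within groups, OBP11 went with the salivary gland genes and, less closely, with the chemosensory neuron genes. After the mean of each genotype and time was taken off the log2 values, OBP11 and the summed salivary list had a Pearson r of 0.79 over 47 libraries (Spearman's rho 0.77, permutation p = 1e-05 for each, the smallest that the permutations can give, and 0.00033 after adjustment over 33 relations). It was 0.75 without the 2 most extreme libraries, 0.89 among KO libraries (n = 23) and 0.71 among WT libraries (n = 24). OBP11 and the summed chemosensory list had r = 0.53 (rho 0.54, adjusted permutation p = 0.00143 and 0.00484). OBP12 with the salivary sum (r = 0.45, adjusted permutation p = 0.0161) and OBP1 with the chemosensory sum (r = 0.44, adjusted permutation p = 0.0265) passed as well. OBP22 and the salivary sum had r = 0.10, being 0.61 in KO and -0.36 in WT. No OBP gene passed with the summed yolk list (r 0.22 to 0.31, adjusted permutation p 0.224 to 0.310). Of 15 pairs of OBP genes, 4 passed the adjusted permutation test. The strongest was OBP1 with OBP38 (r = 0.62, rho = 0.55, adjusted p = 0.00066 and 0.00462 by permutation), with 0.57 in KO and 0.68 in WT. The others were OBP11 with OBP12 (r = 0.44), OBP1 with OBP12 (r = 0.43, adjusted permutation p of rho = 0.0785) and OBP1 with OBP13 (r = 0.43). The libraries of a pair of values share their RNA, depth and scaling, and the median r over all 9942 other genes whose mean log2 CPM reached 1 was 0.05 for OBP11, 0.02 for OBP12 and 0.00 for OBP1. The 95th percentiles of r over those genes were 0.57, 0.44 and 0.32, so that OBP11 with OBP12 and OBP11 with the chemosensory sum lay below the 95th percentile of OBP11. OBP1 with OBP12 lay above that of OBP1 and just below that of OBP12 (0.433 against 0.435). These percentiles are of single genes, whereas each list sum joins several.

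**Figure D4:**
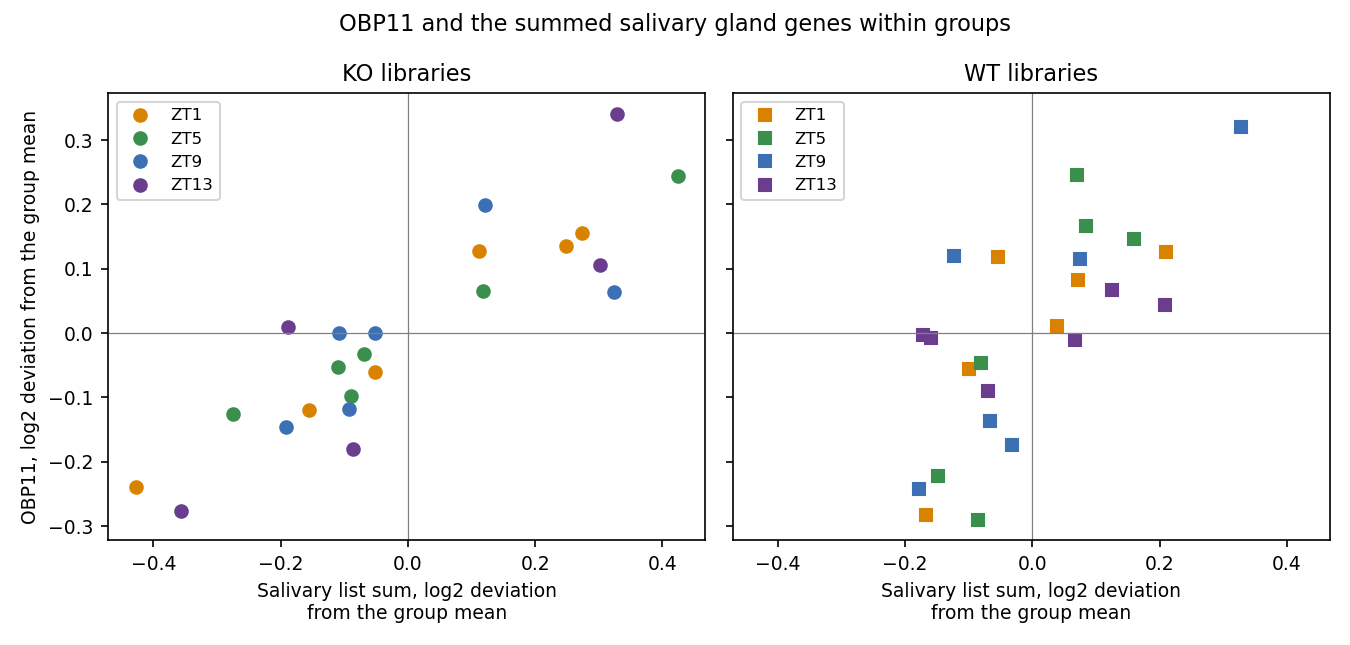
OBP11 (y axis) against the summed level of 6 salivary gland genes (x axis), each as the log2 deviation of a library from the mean of its genotype and time, in 23 KO libraries (left) and 24 WT libraries (right), coloured by time. The points rise together in each genotype, with a Pearson r of 0.89 in KO and 0.71 in WT.

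The genes whose log2 CPM followed each OBP gene most closely over all 47 libraries, among 9943 genes whose mean log2 CPM reached 1, were found as a description. For OBP11 they were AAEL014039 (r = 0.84) and AAEL000229 (r = 0.83), the precursor of prosialokinin, a salivary peptide that widens host blood vessels. For OBP22 they were AAEL011751 (r = 0.84) and AAEL022774 (r = 0.76). For OBP38 they were AAEL027631 (r = 0.69) and AAEL000465 (r = 0.67), and for OBP12 AAEL004151 (r = 0.71) and AAEL012944 (r = 0.70). For OBP1 they were AAEL013018 (r = 0.73) and AAEL004301 (r = 0.64), and for OBP13 AAEL009661 (r = 0.59) and AAEL004301 again (r = 0.51). These values include the differences between genotypes and times, which the libraries share.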

How the data were processed

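Whole-body RNA of female pools was enriched for poly-A RNA, made into TruSeq libraries and sequenced as paired ends. Per the methods and processing notes, the authors checked reads with FastQC 0.11.9, trimmed them with Trim Galore 0.6.6, aligned them with HISAT2 2.2.1 to the VectorBase genome AaegL5_2, sorted them with SAMtools 1.11 and made the deposited count tables with HTSeq 0.11.3. The deposited values are raw counts per gene, not normalized. The strand setting, and how reads shared by similar or overlapping genes were assigned, are not given in the sources used here. The 5 summary lines of each file stayed out of library sizes and tests.

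Counts were tested with edgeR 4.0.16 in R 4.3.3 (TMM factors, filterByExpr, quasi-likelihood test, Benjamini-Hochberg adjustment over all genes tested, threshold 0.05). Genotypes were compared within each time, time was a factor of 4 levels within each genotype, and the interaction and the average over times used 1 fit of 47 libraries. SE is the log2 fold change over the square root of F. DESeq2 1.42.0 (its Wald test, likelihood ratio test and size factors), no filter, a replicate block, 1 fit of all libraries, the doubly labelled library kept, and leaving out each library were alternatives. The fit without 3 KO ZT1 libraries was added after the data were examined. Correlations of log2 CPM (prior count 2) within groups used 100000 permutations of libraries within groups (Python 3.11.15, numpy 2.4.6), and were chosen after the data were examined.

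Named genes were the 6 members, the 3 highest and 3 lowest of the second list by mean log2 fold change over the times, and the 2 genes most like each member. The members, lists and markers were chosen with earlier results of these data known, and the marker genes rest on general knowledge of the species, not on the files. On simulated data for ZT1, with 200 of 11479 genes changed by a fold of 2, 180 of the 200 were recovered and 13 others called. With 200 genes changed likewise, 172 were recovered for time within WT, 148 for the interaction and 189 for the average over times. There 6, 8 and 12 others were called. Changes below a fold of 2, as most OBP estimates were, were not simulated. Of 19804 gene identifiers, 0 matched the reference table used here, so that no coordinates or sequences are given.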

Additional observations from a re-analysis of the deposited data

Results flagged for a closer look

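Of 48 sets of libraries, 1 for each of the 6 OBP genes in each group, 1 held a library far from the rest. OBP1 in WT at ZT5 had 4.23 CPM in replicate 6, while the other 5 libraries lay between 6.39 and 7.52 CPM. Chance gives such a library in about 5% of sets. Without this library the average KO effect on OBP1 passed the threshold (-0.19, adjusted p = 0.0401 in edgeR), as the report states.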

How the results depend on the processing

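The 4 calls averaged over the day (OBP11, OBP12, OBP22 and OBP38) held under the other tools, scalings and filters tried and in every fit without 1 library, and so did those of OBP11, OBP12 and OBP38 at ZT1 and of OBP22 at ZT13. Without the 3 KO ZT1 libraries above all WT in yolk transcripts, an alternative chosen after seeing the data that leaves 3 KO libraries there, 1 was called at ZT1 (OBP38) and 0 for time within KO, and over the day 3 were higher and 1 lower, OBP12 being lost and OBP1 called. Over all genes, leaving them out called 3368 at ZT1, against 5438, and 390 for time within KO, against 1110. The all-gene count over the day is not given here for that alternative. In 1 fit of all libraries no OBP gene was called at ZT5 in either direction (0 higher, 0 lower) or at ZT9 (0). Over all genes that fit called 3879 at ZT5, against 3636, and 4911 at ZT9, against 3856. Without a filter on low counts time called 0 OBP genes within KO and 0 within WT. Over all genes it called 865 and 1566, against 1110 and 1747 with the filter. More genes enter the adjustment without it. DESeq2's likelihood ratio test called 1 OBP gene for the interaction. With the doubly labelled library kept as KO ZT13 replicate 1, 1 OBP gene was called at ZT13. Leaving out its WT ZT9 twin is among the fits without 1 library. The cause of these changes was not tested. With the replicate number as a block, 4 were called higher at ZT1, 0 at ZT9 and 0 for time within WT, and no other count of OBP calls changed. Over all genes the block left 4905, 3129 and 1527 calls in these comparisons, against 5438, 3856 and 1747 without it. Of 23 pairs of same-numbered KO and WT libraries 1 had a correlation of deviations above 0.1 (-0.11 to 0.12), and 3 were closest to their own number. These correlations do not show whether same-numbered libraries shared a rearing, which the labels do not state. Without 1 library, OBP calls ranged over 3 to 5 higher at ZT1, 0 to 1 higher and 0 to 1 lower at ZT5, 0 to 1 higher at ZT9, 0 to 1 lower at ZT13, 0 to 1 for time within KO, 0 to 1 within WT, 0 to 1 for the interaction and 0 to 1 lower over the day. The signs that turned in fits without 1 library all belonged to uncalled values: OBP1 at ZT5 (-0.15 to 0.032, positive without KO replicate 2 or WT replicate 4), OBP38 at ZT9 (-0.011 to 0.16, negative without KO replicate 5 or WT replicate 6) and OBP38 at ZT13 (-0.11 to 0.19, negative without KO replicate 4, WT replicate 4 or WT replicate 5). Over all genes, 2129 were called at ZT13 with the doubly labelled library kept, against 4095 without it. For time within KO DESeq2 called 1964 and edgeR 1110, with 604 to 1901 without 1 library, and for the interaction DESeq2 called 351 and edgeR 161. Low counts limit OBP13, whose lowest library held 3.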
